A study of Arabidopsis thaliana with 12 samples.

Results

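*AT5G38160* and *AT5G38170* are neighbouring genes of the lipid transfer protein family on chromosome 5 of Arabidopsis, with no other gene between them in the gene order of the TAIR10.1 annotation. Each was measured by 1 probe set, 249547_at for *AT5G38160* and 249548_at for *AT5G38170*, so that these are 2 of the 22810 probe sets on the array. Both were among the 64.2% of probe sets kept for testing, those with the highest signal. They were picked for their large fall in *hub1-2*, and their differences between *hub1-2* and the other genotypes are therefore given as a description, with no test.

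The study compared transcript levels in whole siliques of reduced dormancy mutants and their wild type at 18 to 19 days after pollination, when seeds approach ripeness. The mutants were *hub1-2*, which the labels call *rdo4*, *rdo2-1*, which the labels call *rdo2*, and *rdo3*. All 3 mutants and the wild type L*er* (Landsberg *erecta*) were untreated, with 3 Affymetrix ATH1 arrays per genotype and 12 in all. The *HUB1* product attaches ubiquitin to histone H2B in transcribed chromatin, the *RDO2* product (TFIIS) helps RNA polymerase past stalls, and no gene is named for *rdo3*. Each mutant is represented by a single allele, and a silique sample holds seeds, their coats and the fruit wall together. In such a sample fewer cells of a type and less RNA per cell cannot be told apart.

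Plant lipid transfer proteins are small secreted proteins held together by a conserved set of cysteines, which fold around a cavity that can hold a lipid. They share this fold with the 2S albumins, storage proteins of the seed. Members of the family are known from cell walls and surface layers, where GPI-anchored forms take part in the export of wax to the cuticle, and several are known as genes that respond to abscisic acid or stress. No role of their own is given here for *AT5G38160* and *AT5G38170*.

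Expression values are GC-RMA intensities, linear and in arbitrary units, as the authors deposited them. They depend on the probes and are not compared between genes. The medians of the 12 arrays over all probe sets lay between 11.6 and 12.1. Among tissue markers, the 4 named 2S albumin probe sets summed to 91989 to 124504 on the 12 arrays. *OLEO3*, the 1 named of 7 listed embryo storage markers, went another way. It measured 1418 to 1539 in *hub1-2*, 1045 to 1443 in *rdo2-1* and 1206 to 1383 in *rdo3*, against 1802 to 1898 in L*er*. Neither limma nor CyberT called it against L*er*. Root and pollen were listed as tissues that a silique should lack. The 2 named root markers summed to 6.8 to 8.9 and stayed below the array median. The 6 named pollen markers summed to 114 to 1183, and 5 of them exceeded the median on some array. The probe set of *HUB1* measured 160 to 212 in *hub1-2*, against 67.8 to 86.8 in L*er*; its place relative to the lesion is unknown here, so it is no check of the label.

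*AT5G38160* was low on all 3 *hub1-2* arrays and spread widely in the other mutants. Its intensity was 85.1, 32.6 and 117 on *hub1-2* replicates 1, 2 and 3. On the *rdo2-1* arrays it was 298, 1301 and 2013, and on the *rdo3* arrays it was 2029, 1864 and 529. On the L*er* arrays it was 1435, 1448 and 1225. The *hub1-2* arrays lay below every other array, while the L*er* arrays lay inside the range of *rdo2-1* and of *rdo3*. *rdo2-1* replicate 1 and *rdo3* replicate 3 were the lowest arrays outside *hub1-2*.

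*AT5G38170* followed the same order of arrays at its ends. Its intensity was 38.6, 36.5 and 54.7 in *hub1-2*. It was 149, 557 and 1038 in *rdo2-1* and 1332, 885 and 177 in *rdo3*, against 573, 701 and 571 in L*er*. The same 2 arrays, *rdo2-1* replicate 1 and *rdo3* replicate 3, were again the lowest outside *hub1-2*, and the *hub1-2* arrays again lay below all of them. All values of both genes, those in *hub1-2* included, were above the array medians.

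**Figure D1:**
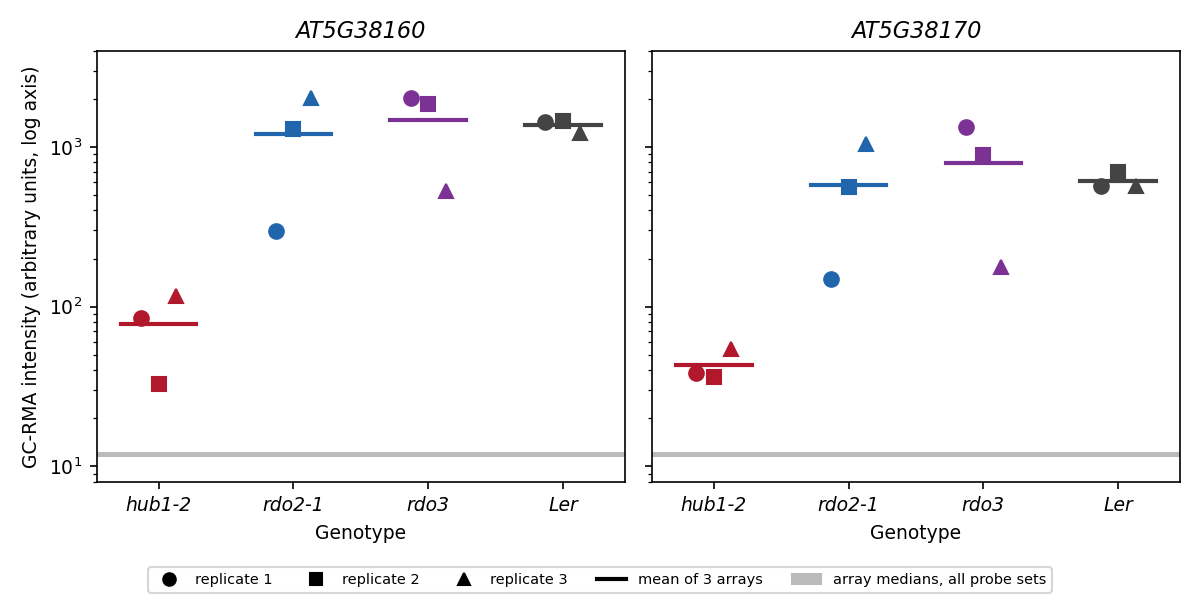
Intensity of *AT5G38160* (left) and *AT5G38170* (right) on each of the 12 arrays, in arbitrary units on a log axis, by genotype. Points are arrays, shaped by replicate number, lines are means of 3 arrays, and the grey band spans the array medians over all probe sets. The *hub1-2* points lie lowest, and 1 point each of *rdo2-1* and *rdo3* lies well below the other 2.

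Means of the linear intensity over 3 arrays put the genotypes in the order *rdo3*, L*er*, *rdo2-1* and *hub1-2* for both genes, while on the log2 scale *rdo3* lay below L*er*. *AT5G38160* averaged 78.3 ± 42.7 in *hub1-2*, 1204 ± 862 in *rdo2-1* and 1474 ± 823 in *rdo3*, against 1369 ± 125 in L*er* (SD, n = 3 each). *AT5G38170* averaged 43.2 ± 9.9 in *hub1-2*, 581 ± 445 in *rdo2-1* and 798 ± 583 in *rdo3*, against 615 ± 74.2 in L*er* (SD, n = 3 each). Only the step to *hub1-2* separates neighbours in this order, because *rdo3*, L*er* and *rdo2-1* overlapped for both genes.

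The log2 difference between *hub1-2* and L*er* was -4.31 (SE 0.39) for *AT5G38160* and -3.85 (SE 0.18) for *AT5G38170*, or 19.9-fold and 14.4-fold lower levels in *hub1-2*. The lowest L*er* array exceeded the highest *hub1-2* array 10.5 times for *AT5G38160* and 10.4 times for *AT5G38170*. Of all kept probe sets, 3.92% were called lower in *hub1-2* by limma. The pair held ranks 5 and 9 among the falls of all kept probe sets. Just outside *AT5G38160* stood *AT3G04170* at -4.47 and *AT1G72570* at -4.25, and around *AT5G38170* stood *EXPA15*, an expansin that loosens the cell wall, at -3.89 and *AT4G14090* at -3.71.

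The fall was also seen when *hub1-2* was set against each of the other mutants. Against *rdo2-1* the log2 difference was -3.74 (SE 0.66) for *AT5G38160* and -3.38 (SE 0.57) for *AT5G38170*. The lowest *rdo2-1* array was 2.54 and 2.73 times the highest *hub1-2* array, and 7.64% of kept probe sets were called lower in *hub1-2* in this comparison. Against *rdo3* the difference was -4.20 (SE 0.59) and -3.80 (SE 0.64), with the lowest *rdo3* array at 4.51 and 3.23 times the highest *hub1-2* array, beside 4.74% called lower. These comparisons share the *hub1-2* arrays and are not independent of each other or of the pick.

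Ranks within an array, which no scaling of that array can move, also put *hub1-2* lowest. *AT5G38160* stood above 41.9% to 61.4% of the kept probe sets on the *hub1-2* arrays, against 92.4% to 94.0% on the L*er* arrays. It stood above 75.4%, 92.7% and 95.8% on the *rdo2-1* arrays and above 95.9%, 95.5% and 83.1% on the *rdo3* arrays. *AT5G38170* stood above 43.7% to 50.3% on the *hub1-2* arrays, 65.7% to 90.7% on *rdo2-1* and 67.9% to 93.0% on *rdo3*, against 84.0% to 86.8% on L*er*. In *hub1-2* both genes thus lay near the middle of the kept probe sets.

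In *rdo2-1* neither gene passed the test against L*er*. The log2 difference was -0.57 for *AT5G38160* (SE 0.55, 95% interval -1.80 to 0.66, limma adjusted p = 0.59) and -0.47 for *AT5G38170* (SE 0.55, 95% interval -1.70 to 0.76, limma adjusted p = 0.66). The L*er* arrays also stood in the comparison for which the genes were picked. limma called 0.143% of kept probe sets in either direction at an adjusted p under 0.01, and 3133 had an unadjusted p under 0.05. CyberT, the test named in the study's methods, called neither gene and gave adjusted p = 0.40 and 0.52, while it called 3.38% of kept probe sets. Without *rdo2-1* replicate 1 the differences turned to 0.25 and 0.31, so that 1 array set their sign. The intervals hold lower as well as higher levels in *rdo2-1*, and a missed threshold does not show equal levels.

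In *rdo3* neither gene passed the test against L*er*. The log2 difference was -0.12 for *AT5G38160* (SE 0.44, 95% interval -1.12 to 0.89, limma adjusted p = 0.95) and -0.05 for *AT5G38170* (SE 0.62, 95% interval -1.46 to 1.36, limma adjusted p = 0.99). limma called 0.0205% of kept probe sets here, CyberT called 1.01% and neither gene, and 1542 probe sets had an unadjusted p under 0.05. Without *rdo3* replicate 3 the differences were 0.51 and 0.83, again with the other sign. These comparisons use the same L*er* arrays as those of *rdo2-1*.

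The comparison of *rdo2-1* with *rdo3* rests on arrays that played no part in the pick. The log2 difference was -0.45 for *AT5G38160* (SE 0.70, 95% interval -2.03 to 1.13, limma adjusted p = 0.75) and -0.42 for *AT5G38170* (SE 0.81, 95% interval -2.26 to 1.41, limma adjusted p = 0.80). The groups overlapped for both genes, and limma called 0.252% of kept probe sets, with 2992 at an unadjusted p under 0.05. CyberT called neither gene and 2.81% of kept probe sets. Without *rdo2-1* replicate 1 the differences were 0.36 for each gene, and without *rdo3* replicate 1 that of *AT5G38170* was 0.16.

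In *rdo2-1* and *rdo3* both genes spread widely between replicates. The SD of log2 intensity over the *rdo2-1* arrays was 1.44 for *AT5G38160* and 1.43 for *AT5G38170*, against a median of 0.21 over all kept probe sets. Only 7 and 8 of the kept probe sets had a larger SD in *rdo2-1*. In *rdo3* the SD was 1.09 and 1.54, against a median of 0.16, and 70 and 16 probe sets had a larger one. The highest array exceeded the lowest 6.76 times and 6.96 times in *rdo2-1*, and 3.84 times and 7.55 times in *rdo3*.

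In *hub1-2* the spread differed between the genes, and it was wide for *AT5G38160*, whereas in L*er* it was small for both. The median SD in *hub1-2* was 0.13 over all kept probe sets. The SD there was 0.96 for *AT5G38160*, with 49 probe sets (0.33%) above it, and 0.32 for *AT5G38170*, with 1226 (8.37%) above it. In L*er* it was 0.14 and 0.17, below the median of 0.19 over all kept probe sets, and 66.5% and 55.5% of probe sets had a larger one. The *hub1-2* and L*er* spreads belong to the comparison for which the genes were picked, whereas those of *rdo2-1* and *rdo3* do not. A difference in spread between genotypes was not tested with 3 arrays each.

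**Figure D2:**
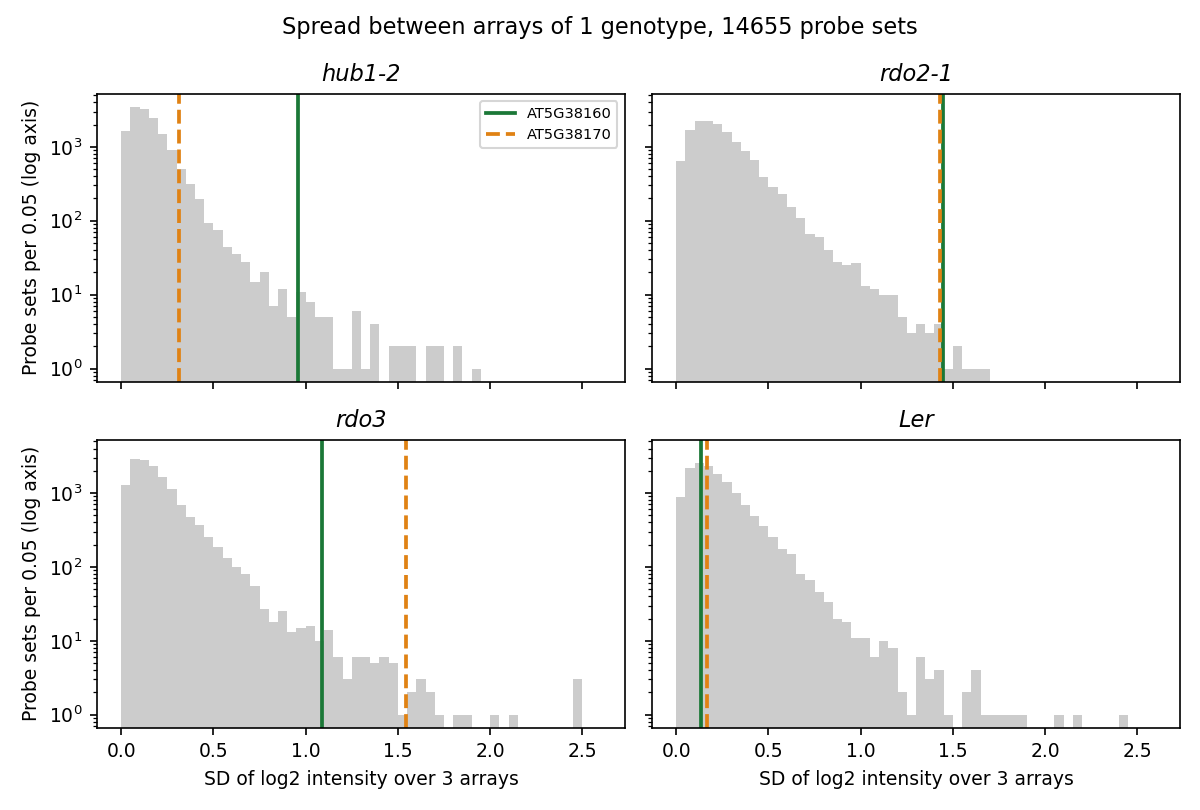
Number of kept probe sets (log axis) by the SD of their log2 intensity over the 3 arrays of a genotype, 1 panel per genotype, with vertical lines at *AT5G38160* and *AT5G38170*. Both lines stand at the far right in *rdo2-1* and *rdo3* (1.09 to 1.54), but near the middle of the distribution in L*er* (0.14 and 0.17).

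The replicates of a genotype moved in the same direction for both genes. Relative to the genotype mean on the log2 scale, *rdo2-1* replicate 1 deviated by -1.63 for *AT5G38160* and -1.57 for *AT5G38170*. *rdo3* replicate 3 deviated by -1.25 and -1.75. *rdo2-1* replicate 3 deviated by 1.13 and 1.23. Thus an array low for one gene was low for the other, with *hub1-2* replicate 1 (0.31 and -0.14) and L*er* replicate 1 (0.07 and -0.09) as the arrays of opposite sign.

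Over the 12 arrays the deviations of both genes had Pearson's r = 0.91 and Spearman's rho = 0.93. These are given as a description, since the *hub1-2* and L*er* arrays also served the pick. Over the 6 *rdo2-1* and *rdo3* arrays, which did not and were singled out after seeing the data, r was 0.98 and rho was 0.94. With arrays permuted within genotypes, the exact two-sided p was 0.028 for each, the smallest that 36 permutations can give. *rdo2-1* replicate 1 and *rdo3* replicate 3 deviated most, and leaving both out of the 6 would leave too few arrays for a test. Without them r was 0.62 and rho was 0.76 over the other arrays of all 4 genotypes. These include the arrays of the pick, so the values are a description. With only *rdo2-1* replicate 1 left out of the 12 arrays r was 0.84, and with only *rdo3* replicate 3 left out it was 0.89. The size of r thus depended in large part on those 2 arrays together. Among the 14654 other kept probe sets, 3 had a higher r of deviations with *AT5G38160* than *AT5G38170* had, and 5 had a higher one with *AT5G38170* than *AT5G38160* had. Probe sequences were not used here, and whether 1 probe set also picks up the transcript of the neighbouring gene was not tested.

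**Figure D3:**
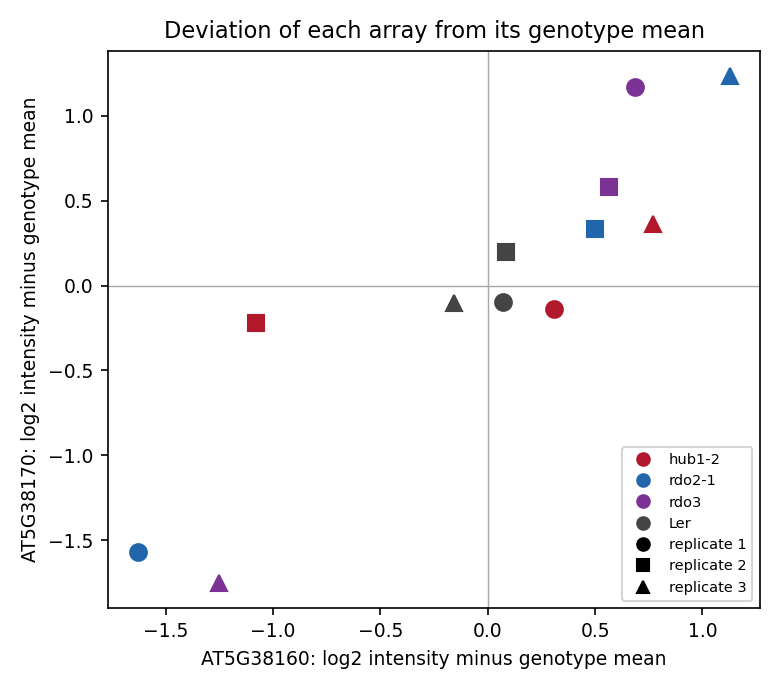
Deviation of each of the 12 arrays from its genotype mean, in log2 intensity, for *AT5G38160* (x axis) and *AT5G38170* (y axis), coloured by genotype and shaped by replicate. *rdo2-1* replicate 1 and *rdo3* replicate 3 lie at the lower left (-1.63 to -1.25 and -1.75 to -1.57), and the L*er* arrays lie around 0.

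The fall in *hub1-2* was not equal in size on each array. The log2 ratio of the *AT5G38160* signal to the *AT5G38170* signal, of which only changes between arrays are read, was 1.14, -0.16 and 1.10 on the *hub1-2* arrays. It averaged 0.69 ± 0.74 in *hub1-2*, 1.06 ± 0.14 in *rdo2-1* and 1.09 ± 0.49 in *rdo3*, against 1.16 ± 0.15 in L*er* (SD, n = 3 each). *hub1-2* replicate 2, where *AT5G38160* was lowest at 32.6, thus stood apart from the other 2 *hub1-2* arrays, which lay within the range of the other genotypes.

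Other tissues varied between the same arrays. The summed level of the silique wall markers (3 of 10 listed genes had a named probe set) was 202 to 337 in *hub1-2*, 404 to 556 in *rdo2-1* and 343 to 418 in *rdo3*, against 283 to 326 in L*er*. Its members, named after their values were seen, differed in direction between *hub1-2* and L*er*. limma called *ALC* lower (-1.17, adjusted p = 0.0022), beside 3.92% of all kept probe sets. It called *QRT2* higher (adjusted p = 0.0087), beside 5.53%, with 70.5, 76.7 and 162 in *hub1-2*, against 38.0, 32.4 and 31.6 in L*er*. *SHP2* stood at -0.79 (limma adjusted p = 0.012). *QRT2* and *SHP2* were named through the study's own selected list. The silique wall sum was highest in *rdo2-1* on replicate 1 and in *rdo3* on replicate 3, the arrays with the lowest signal of the pair. In L*er*, too, it was highest on replicate 3, where both genes were lowest. In *hub1-2* the order was the other way. There the sum was 225, 202 and 337 on replicates 1, 2 and 3, and both genes, too, were lowest on replicate 2 and highest on replicate 3. The pollen list (6 of 8 listed genes had a named probe set) summed to 114 to 667 in *hub1-2*, 539 to 1183 in *rdo2-1* and 213 to 615 in *rdo3*, against 300.3 to 326 in L*er*. *hub1-2* replicate 2 had the lowest pollen sum, and *rdo3* replicate 3 had the highest of its genotype, but in *rdo2-1* replicate 2 had the highest at 1183, with 913 on replicate 1. The seed coat markers (3 of 7 named) summed to 165 to 184 in *hub1-2*, 159 to 200.3 in *rdo2-1* and 162 to 182 in *rdo3*, against 142 to 176 in L*er*. CyberT called *TTG2* among them, which was named through the study's own selected list, lower in *hub1-2* and in *rdo2-1* than in L*er*. Of all kept probe sets it called 7.31% lower in *hub1-2* and 3.38% in either direction in *rdo2-1*, where 1.63% were called higher. The part of these markers in the spread of the pair was not tested.

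Among the genes next to the pair, the 2 that measured above the array medians did not share its pattern. Of the 20 nearest genes, 10 on each side, 8 had a named probe set and 3 of these were kept for testing. Of the 8, 6 stayed below the array medians on all 12 arrays, too low to show such a fall. Among those 6 was *AT5G38180*, a further lipid transfer family gene directly after *AT5G38170*, at 5.0 to 7.6 over the 12 arrays. The others below the medians were *AT5G38100*, *ASF1B*, which encodes a histone chaperone, *4CL8*, *AT5G38130* and *AT5G38210*. *AT5G38220*, 9 genes away, measured 242 to 342 in *hub1-2*, against 274 to 296 in L*er*, a log2 difference of 0.03 (SE 0.15, limma adjusted p = 0.90).

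*AT5G38195*, a lipid transfer family gene 4 genes after the pair, had another order of genotypes than the pair. It measured 120, 163 and 222 in *hub1-2*, 354, 191 and 513 in *rdo2-1*, and 80.6, 60.9 and 70.6 in *rdo3*, against 133, 175 and 174 in L*er*. The *rdo3* arrays lay below all others and the *rdo2-1* arrays above all L*er* arrays, while *hub1-2* and L*er* overlapped. Its log2 difference from L*er* was 0.03 in *hub1-2* (limma adjusted p = 0.93), 1.03 in *rdo2-1* (limma adjusted p = 0.11, CyberT 0.028) and -1.19 in *rdo3* (limma adjusted p = 0.052, CyberT 0.0037). Between *rdo2-1* and *rdo3* it was 2.22 (SE 0.32, limma adjusted p = 0.014, CyberT 2.8e-05). The differences of *rdo3* from L*er* and from *rdo2-1* passed 0.01 with CyberT and not with limma.

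**Figure D4:**
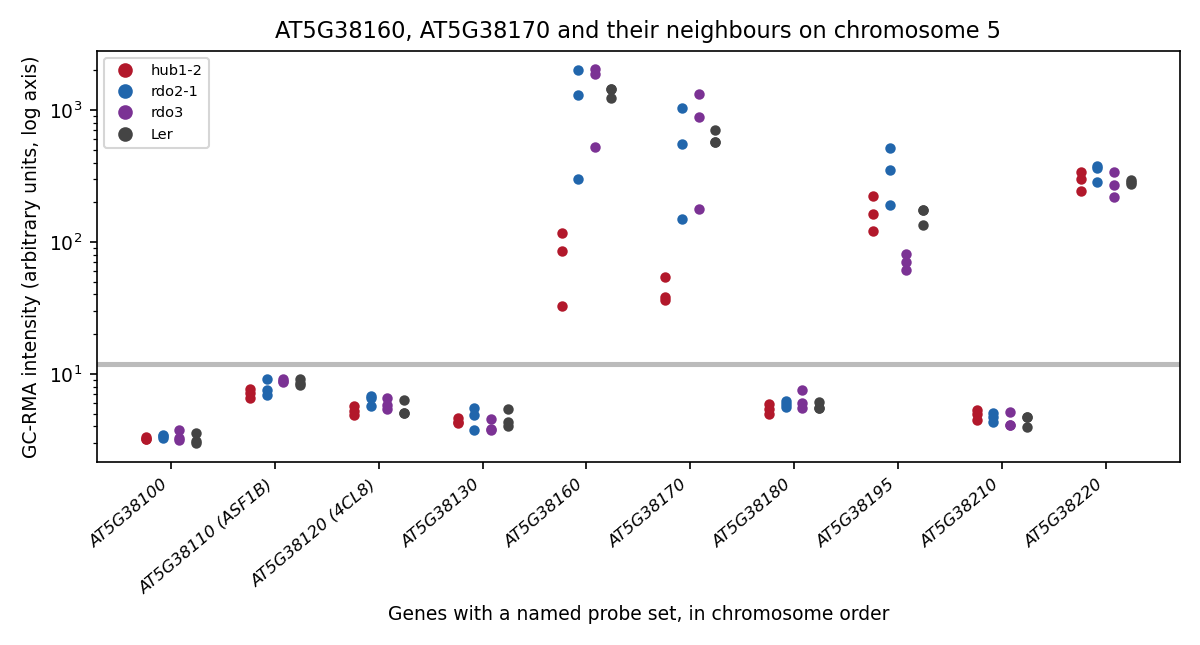
Intensity on each array (arbitrary units, log axis) of *AT5G38160*, *AT5G38170* and the 8 neighbouring genes with a named probe set, in chromosome order along the x axis, with the genotypes side by side for each gene. The grey band spans the array medians over all probe sets. *AT5G38180* lies below the band on every array, and *AT5G38195* is lowest in *rdo3* (60.9 to 80.6).

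The wider family showed falls in *hub1-2* in only some members. Of 96 other lipid transfer family genes listed, 50 had a named probe set and 22 of these were kept for testing. limma called 5 of the 22 lower and 1 higher in *hub1-2* than in L*er*, beside 3.92% lower and 5.53% higher over all kept probe sets. CyberT called 7 lower and 2 higher, beside 7.31% and 9.7%. The median log2 difference was -0.27 for the 22 genes and 0.02 for all kept probe sets. Names of 6 of the 22 come from the study's own list of genes selected on these samples, which is no independent evidence of direction. With these left out, 1 of the remaining 16 genes was called lower and 1 higher by limma, and 3 lower and 2 higher by CyberT.

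The largest fall in the wider family was that of *AT1G62500*, a proline-rich member. It measured 44.6, 27.3 and 35.5 in *hub1-2*, against 262, 355 and 280 in L*er*, a log2 difference of -3.08 (SE 0.21, limma adjusted p = 9.9e-05). *CWLP*, a cell wall linker protein with a proline-rich part, fell by 2.14 (SE 0.17), and *LTPG1*, a GPI-anchored protein needed for wax export to the stem surface, fell by 1.37 (SE 0.09). The other 2 called genes, named after their values were seen, were *LTPG2*, a close relative of *LTPG1*, at -1.20 with a signal near the array medians, and *XYP1*, a xylogen protein of vascular development, at -0.60. *CWLP*, *LTPG1*, *LTPG2* and *XYP1* were named through the study's own selected list, so their falls are no independent evidence of direction. *AT1G62500* was named by the array annotation. *AT1G48750* was the 1 gene called higher, with 4728, 4779 and 4678 in *hub1-2*, against 2591, 2812 and 2156 in L*er*, a log2 difference of 0.92 (SE 0.10, limma adjusted p = 0.00062).

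Against the other mutants, too, part of the family was lower in *hub1-2*. limma called 11 of the 22 genes lower than in *rdo2-1*, beside 7.64% of all kept probe sets, with a median of -0.82 against 0.02 over all. With the 6 genes named through the study's own selected list left out, 6 of the remaining 16 were called lower. The largest differences among the 11 were those of *LTP3* (-4.25, SE 0.64), *LTP4* (-2.60, SE 0.48) and *AT1G62500* (-2.47, SE 0.48). *LTP3* and *LTP4* are among the 6 genes left out. Between *hub1-2* and L*er* they differed by -0.64 and -0.28 (limma adjusted p = 0.61 and 0.78). Against *rdo3*, 8 genes were called lower and 1 higher, beside 4.74% and 6.48%. Without the 6 genes of the study's own list, 4 of the 16 were called lower and 1 higher. *AT1G62500* (-3.75, SE 0.20), *AT3G58550* (-2.63, SE 0.22) and *CWLP* differed most among those lower than in *rdo3*, and *AT5G38195* was the 1 that was higher, by 1.22 (SE 0.23). *CWLP* measured 41.9, 46.7 and 59.1 in *hub1-2*, against 176, 195 and 216 in *rdo3*.

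*LTP3* and *LTP4*, close paralogues known to respond to abscisic acid, had another pattern than the pair. Whether their probe sets share sequence was not tested. *LTP3* measured 53.2, 14.8 and 26.9 in *hub1-2*, 822, 174 and 1013 in *rdo2-1* and 41.7, 80.7 and 30.3 in *rdo3*, against 11.2, 48.5 and 146 in L*er*. *LTP4* measured 767, 303 and 605 in *hub1-2*, 4512, 1385 and 5006 in *rdo2-1* and 607, 868 and 553 in *rdo3*, against 219, 795 and 1444 in L*er*. In *rdo2-1* all arrays of *LTP3* lay above those of every other genotype, and so did 2 of 3 arrays of *LTP4*. The log2 difference between *rdo2-1* and L*er* was 3.61 for *LTP3* (SE 0.87, limma adjusted p = 0.058) and 2.32 for *LTP4* (SE 0.65, limma adjusted p = 0.085). CyberT called both higher. Both were named through the study's own selected list, so these calls are no independent evidence of direction.

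No gene of the 22 was called by limma in *rdo2-1* against L*er*, in *rdo3* against L*er* or between these mutants. At an unadjusted p under 0.05 there were 9 genes in the first, 5 in the second and 8 in the third comparison, beside 21.4%, 10.5% and 20.4% of all kept probe sets. CyberT called *LTP3*, *LTP4* and *AT1G62510* higher in *rdo2-1* than in L*er*, beside 1.63% of all kept probe sets, and these and *AT5G38195* higher in *rdo2-1* than in *rdo3*, beside 1.21%. Of these genes, *LTP3* and *LTP4* were named through the study's own selected list. It called *AT1G48750* higher and *AT5G38195* lower in *rdo3* than in L*er*, beside 0.764% and 0.246%. Among the other numbered family genes, *LTP8* differed by 0.91 in *rdo2-1* and 1.37 in *rdo3* (limma adjusted p = 0.38 and 0.42), and *LTP10* stayed below the array medians.

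**Figure D5:**
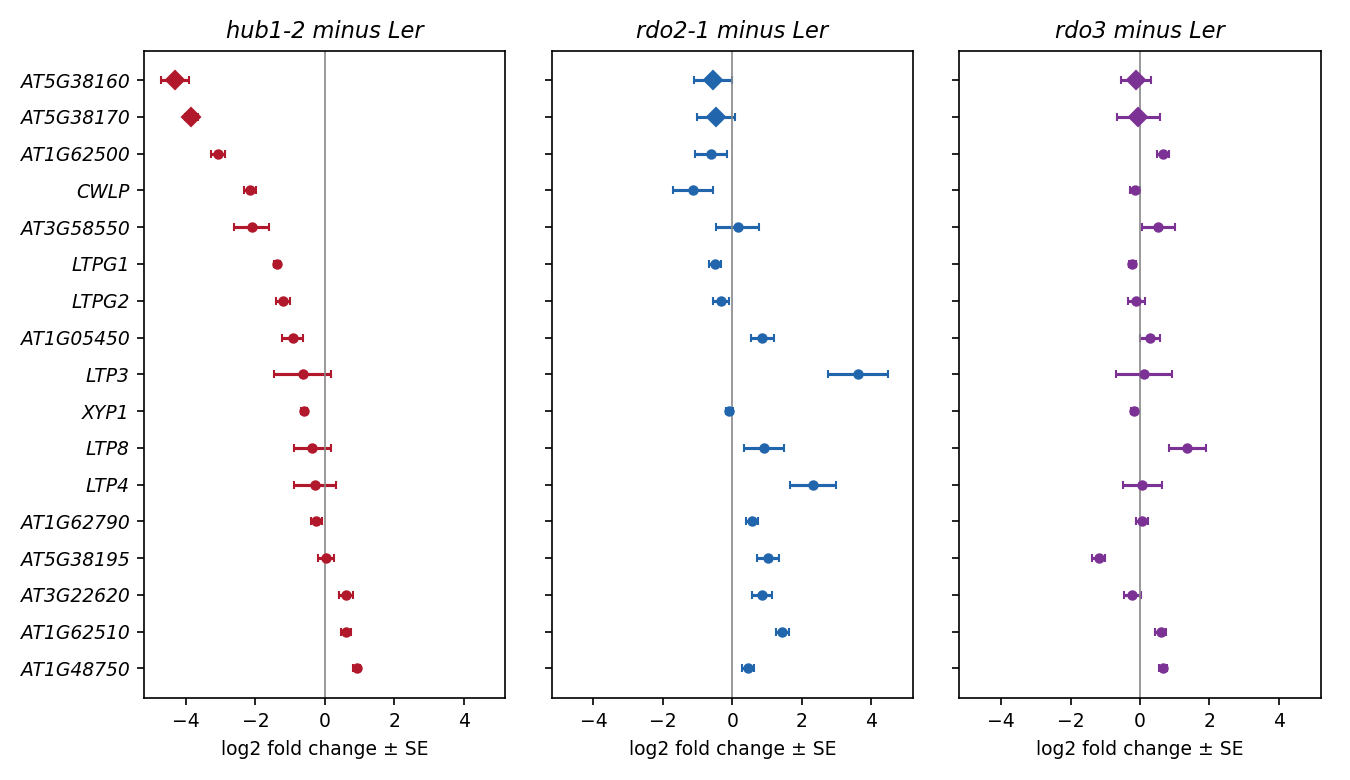
Log2 fold change ± SE (3 arrays per genotype) of *AT5G38160* and *AT5G38170* (diamonds) and of the 15 other kept family genes with a mean above the array medians in some genotype (circles), for *hub1-2*, *rdo2-1* and *rdo3*, each minus L*er*. The diamonds lie at -4.31 and -3.85 in *hub1-2* and within 1 unit of 0 in *rdo2-1* and *rdo3*, where their error bars are among the longer ones.

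The array on which the pair was lowest in *rdo2-1* was not the one on which the rest of the family was lowest. Of the 15 plotted family genes, 13 had their lowest *rdo2-1* value on replicate 2 and 1 on replicate 1, whereas *AT5G38160* and *AT5G38170* had theirs on replicate 1. Over all kept probe sets 34.3% were lowest on replicate 2 and 30.7% on replicate 1. In *rdo3* 6 of the 15 genes were lowest on replicate 3, as the pair was, beside 28.2% of all kept probe sets. *AT1G62500*, for instance, measured 239, 79.8 and 384 in *rdo2-1*, with its lowest value on replicate 2.

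Cuticle and epidermis genes, whose products act in the layers where several lipid transfer proteins are found, were lower in *hub1-2* in part. Of 27 listed cuticle and wax genes 9 were kept, 8 of them named through the study's own selected list, and limma called 3 lower and 0 higher, beside 3.92% and 5.53% of all kept probe sets. At an unadjusted p under 0.05 there were 9, beside 37.5%, and CyberT called 6 lower and 1 higher, beside 7.31% and 9.7%. *CER6*, an elongase of wax precursors, fell by 2.32 (SE 0.27), *FDH*, an elongase needed to keep organ surfaces apart, fell by 1.94 (SE 0.26), and *CER3*, a protein of alkane formation named after its values were seen, fell by 1.09 (SE 0.20). The epidermal gene *PDF1* was the 1 named gene of 9 listed. It, too, was named through the study's own selected list, so its fall is no independent evidence of direction. *PDF1* measured 1368, 1165 and 1076 in *hub1-2*, against 3078, 3452 and 3546 in L*er*, a log2 difference of -1.49 (SE 0.11). All 8 cuticle genes above the array medians in some genotype had their lowest *rdo2-1* value on replicate 2, not on replicate 1.

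The 2S albumins, which share the fold but not the family, did not share the size of the fall. Of the 4 kept, all named through the study's own selected list, limma called 1 lower, beside 3.92% of all kept probe sets. This was *SESA1*, named after its values were seen, at -0.20 in *hub1-2* against L*er*. Their summed level was 91989 to 109367 in *hub1-2*, against 95270 to 104288 in L*er*, and these ranges overlapped.

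No kept probe set followed either gene across the 12 arrays as closely as the other gene of the pair did. Pearson's r between *AT5G38160* and *AT5G38170* over the 12 arrays was 0.98, against at most 0.93 and 0.95 for any other probe set, and all these values share the genotype difference for which the pair was picked. Among probe sets of 1 named gene, the 8 most like the mean log2 level of the pair had r between 0.89 and 0.93. They were *ALPHA-VPE*, which encodes a vacuolar processing protease, *AT1G48230*, *VTC5*, an enzyme of ascorbate synthesis, *AT5G52880*, *MTO3*, an S-adenosylmethionine synthetase, *BGLU3*, a glycosyl hydrolase, *MUB4*, a membrane-anchored ubiquitin-fold protein, and *AT1G78040*.

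These 8 genes were picked for a pattern like that of the pair, so that their lowest mean in *hub1-2* largely follows from the choice. The changes were smaller than those of the pair. Their log2 differences between *hub1-2* and L*er* ran between -1.63 (*ALPHA-VPE*) and -0.36 (*AT5G52880*). *ALPHA-VPE* measured 25.5, 31.0 and 34.8 in *hub1-2*, 63.5, 104 and 91.5 in *rdo2-1* and 87.1, 125 and 93.2 in *rdo3*, against 93.0, 99.6 and 88.4 in L*er*. It was lowest on replicate 1 in *rdo2-1*, as the pair was, and on replicate 1 in *rdo3*, as the pair was not. *AT1G48230* had the closest deviations from the genotype means, with r = 0.74 over the 12 arrays, at a low signal of 8.4 to 14.4.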

How the data were processed

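RNA of whole siliques was hybridised to ATH1 arrays, and the study states 3 independent biological replicates per genotype. Background correction, normalization and summary per probe set were done by the authors with GC-RMA (Expressionist Pro 5.1), and the deposited values are linear intensities for 22810 probe sets. Which arrays entered 1 normalization is not given in the sources used. The deposited table has no detection p, and the number of arrays limits the precision.

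Groups are the genotypes of the labels. All tests used log2 intensity with no pseudocount. Control probe sets (64) were dropped, and the rest were ranked by their second-highest value among the *hub1-2*, *rdo2-1* and L*er* arrays to keep the top 14655, as many as the study's detection filter left. limma 3.58.1 in R 4.3.3 compared genotypes over 6 arrays each, with an intensity trend in the prior spread, Benjamini-Hochberg adjustment over all kept probe sets, and calls under 0.01. CyberT was run with window 101 and prior weight 10, settings that were chosen here. Simulated data with 200 changed probe sets were used to check both tests. Intervals are 95% intervals of limma. Other values came from Python 3.11.15, NumPy 2.4.6 and pandas 2.3.3, and plots from matplotlib 3.10.9.

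Probe sets were named by the array annotation or by gene codes in the study's own list of selected genes (8079 and 1129 of those kept), and 5447 had no single name here. The members and the lists were chosen with earlier results of these data known. The genes named are the 2 members, their named neighbours within 10 genes on each side, the numbered *LTP* genes, up to 3 of the largest called falls and rises of the family in each comparison, up to 2 called each way of the cuticle and epidermis lists, and the 8 probe sets most like the pair. Also named are *HUB1*, tissue markers, the genes beside the pair in rank of fall, and genes marked as named after their values were seen. Alternatives were CyberT, all 12 arrays in 1 fit, arrays centred on their medians, quantile normalization, no filter, log2(intensity + 16), no intensity trend, a replicate block, a threshold of 0.05 and each array left out in turn.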

Additional observations from a re-analysis of the deposited data

How the results depend on the processing

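With only 3 arrays per genotype, the spread of the pair in *rdo2-1* and *rdo3* leaves wide intervals. The pair was called in none of the alternatives of the comparisons without *hub1-2*, where the lowest adjusted p was 0.20. Leaving out each array in turn moved the log2 difference of *rdo2-1* from L*er* between -1.13 and 0.25 for *AT5G38160* and between -1.09 and 0.31 for *AT5G38170*, positive only without *rdo2-1* replicate 1. For *rdo3* against L*er* the ranges were -0.46 to 0.51 and -0.63 to 0.83, positive without *rdo3* replicate 3 and, at 0.05 for *AT5G38170*, without L*er* replicate 2. Between *rdo2-1* and *rdo3* they were -1.08 to 0.36 and -1.30 to 0.36, positive without *rdo2-1* replicate 1 and, at 0.16 for *AT5G38170*, without *rdo3* replicate 1.

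The fall in *hub1-2* kept its direction in the alternatives computed for it, which were all 12 arrays in 1 fit, centred arrays, quantile normalization, log2(intensity + 16), the replicate block and each array left out. Leaving out arrays gave -4.70 to -3.77 and -4.03 to -3.74 against L*er*, -4.56 to -3.18 and -4.16 to -2.76 against *rdo2-1*, and -4.82 to -3.66 and -4.67 to -3.22 against *rdo3*. With log2(intensity + 16) the difference of *AT5G38170* from L*er* was -3.42, since the added value weighs most on low intensities.

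In the wider family, calls between *hub1-2* and L*er* numbered 4 to 8 with an array left out. Between *rdo2-1* and L*er* there were 0 with an array left out, 3 with CyberT, and 1 each with all 12 arrays in 1 fit, centred arrays, or a threshold of 0.05. Between *rdo3* and L*er* there were 0 with an array left out and 2 with CyberT. Between *rdo2-1* and *rdo3* there were 4 with CyberT or a threshold of 0.05, 1 with all 12 arrays or centred arrays, and 0 to 3 with an array left out (3 without *rdo2-1* replicate 2). The cause was not tested. The r of the deviations of the pair was 0.84 to 0.98 with 1 array left out and 0.62 without the 2 of largest deviation, against 0.91 over all 12 arrays.

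Correlations of same-numbered deviations ran from -0.18 to 0.39. Different-numbered arrays were not compared, so whether replicate numbers of the labels pair the samples cannot be told. Between *rdo2-1* and L*er*, a replicate block gave an SE of 0.42 for *AT5G38160* and 0.40 for *AT5G38170*, against 0.55 for each without it. With the replicate block, 1 family gene was called between *rdo2-1* and L*er* and 1 between *rdo2-1* and *rdo3*, and no call of the pair changed (adjusted p = 0.43 and 0.49, 0.94 and 0.99, and 0.73 and 0.80 in the comparisons without *hub1-2*).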
